A study of Mus musculus with 12 samples.

Results

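The keratin gene family was followed in B16F10 and 4T1 cells grown with or without decitabine. Its members were all genes of the deposited count tables whose symbol is Krt followed by a number and at most 1 letter, and 51 of 46517 genes matched. Of these, 28 are type I and 23 are type II keratin genes. By the epithelium in which they are best known, 6 were classed as simple, 3 as basal, 4 as stress, 5 as suprabasal, 4 as mucosal, 9 as inner root sheath, 14 as hair and 6 as other keratins. B16F10 is a mouse melanoma line and 4T1 a mouse mammary carcinoma line. Decitabine is a cytidine analogue that is built into DNA and traps DNA methyltransferases. The 4 groups were B16F10 control, B16F10 with 0.1 µM decitabine for 48 h, 4T1 control and 4T1 with 1 µM decitabine for 48 h, each with 3 libraries of RNA from whole cultures freed of dead cells. The sources used here do not say what the control wells received. Each line had its own dose, so that effects of line and dose cannot be told apart. Whether replicates came from separate cultures is not stated either, and p-values therefore measure only the spread between these libraries, which may be technical.

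Keratins are the intermediate filament proteins of epithelial cells. A filament is built from pairs of 1 type I and 1 type II chain, and epithelia use characteristic pairs, such as Krt8 with Krt18 in simple epithelia, Krt5 with Krt14 in basal cells of stratified epithelia, Krt1 with Krt10 in the layers above them, and Krt6 with Krt16 or Krt17 in wounded epidermis and in hair follicle layers. Most type I genes lie in a cluster on mouse chromosome 11 and the type II genes in a cluster on chromosome 15, where the type I gene Krt18 is found as well. Melanocytes are not epithelial cells and are not known for keratin filaments, whereas mammary epithelium has a luminal layer rich in Krt8 and Krt18 and a basal layer marked by Krt5 and Krt14.

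The libraries held 48197936 to 76042600 estimated counts, so that 3 counts correspond to 0.0395 to 0.0622 CPM (counts scaled to the depth of a library). The labelled lines carried their defining markers. Pmel, a melanosome matrix gene, stood at 2981 ± 49.8 CPM in B16F10 control and 0.151 ± 0.0222 CPM in 4T1 control libraries (SD, n = 3 each). Mlana and Mitf, further melanocyte genes, stood at 769 and 457 CPM in B16F10 control and 0.00602 and 6.01 CPM in 4T1 control libraries, and Tyr, the tyrosinase gene, at 3.23 and 0.103 CPM. Cdh1, which encodes E-cadherin, stood at 1.64 ± 0.211 CPM in B16F10 and 398 ± 48.0 CPM in 4T1 control libraries, and Epcam, an epithelial adhesion gene, at 2.09 ± 0.397 and 264 ± 9.16 CPM (SD, n = 3 each). CPM of genes here and below are scaled with TMM factors (trimmed mean of M-values). Dnmt1, the maintenance methyltransferase that decitabine traps, was lower with the drug in both lines, with log2 fold changes of -0.66 (SE 0.0563, adjusted p = 2.57e-08) in B16F10 and -0.28 (SE 0.0523, adjusted p = 0.000515) in 4T1, by edgeR's quasi-likelihood test with Benjamini-Hochberg adjustment over all tested genes, the test used throughout.

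The first comparison set the untreated lines side by side. Keratin RNA was plentiful in 4T1 and nearly confined to 1 gene in B16F10. Of the 51 genes, 26 had any count in the 3 libraries of 4T1 control and 5 in those of B16F10 control, namely Krt80, Krt83, Krt222, Krt24 and Krt14, and 8 genes had 0 counts in all 12 libraries. Over all genes, 19481 to 19882 were above 0 in a 4T1 control library and 17336 to 17769 in a B16F10 control library. Keratin genes together took 0.329% ± 0.00267 of the counts in 4T1 control and 0.00389% ± 0.000162 in B16F10 control libraries (SD, n = 3 each). Across 17127 tested genes 77.9% were called different between the untreated lines, 40% higher and 37.9% lower in 4T1. Of 15 tested keratin genes 11 were higher and 1 was lower in 4T1, and since the filter on low counts keeps a gene for the group where it is high, that count does not describe the whole family.

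The simple epithelial pair Krt8 and Krt18 led in 4T1. Krt8, the type II chain of simple epithelia (ENSMUSG00000049382), had 66430, 72699 and 69535 counts in the 4T1 control libraries and 0, 0 and 0 in the B16F10 control libraries. Krt18, its type I partner (ENSMUSG00000023043), had 52547, 58574 and 55723 counts against 0, 0 and 0. The groups did not overlap for either gene, and against a floor of 3 counts over the 3 B16F10 libraries the 2 genes were at least 77300-fold and 61800-fold higher in 4T1. Krt7, a type II keratin of ducts and glands (ENSMUSG00000023039), had 32518, 37132 and 36680 counts against 0, 0 and 0, at least 39400-fold higher. Krt19, the type I keratin without a tail domain that is found in ducts and glands (ENSMUSG00000020911), had 4117, 4185 and 4050 counts against 0, 0 and 0, at least 4580-fold higher. These 4 of the 6 simple keratin genes were thus read at 4050 or more counts in each 4T1 control library and at none in B16F10 control. Krt14, the type I keratin of basal cells (ENSMUSG00000045545), had 4442.81, 4940.69 and 4297.6 estimated counts in 4T1 control and 0, 2 and 0 in B16F10 control, a ratio of 7601 (95% counting interval 2100 to 62800). Its type II partner Krt5 had 0 counts in all 6 control libraries of both lines. Krt16, Krt10, Krt17 and Krt13 were at least 127-fold, 77.0-fold, 33.0-fold and 23.7-fold higher in 4T1 control, each with 0 counts in B16F10 control. In a bulk library, fewer cells that carry a keratin and less keratin RNA per cell cannot be told apart.

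Per length, the order of keratin levels in 4T1 control libraries began with Krt18 at 2265 ± 43.1 and Krt8 at 2079 ± 33.6 TPM (a level per length and library total, computed from the counts and the length of all exons of a gene, SD, n = 3 each). Krt7 followed at 294 ± 14.8, Krt14 at 152 ± 5.22, Krt19 at 130 ± 5.205 and Krt80 at 15.3 ± 0.482 TPM (SD, n = 3 each). With all exons as length, these levels were separated by gaps wider than the spread between libraries. Below them stood Krt16 at 4.23 ± 0.858, Krt10 at 1.93 ± 0.353, Krt17 at 1.12 ± 0.161, Krt13 at 0.687 ± 0.0490 and Krt83 at 0.469 ± 0.392 TPM (SD, n = 3 each), of which Krt13 and Krt83 overlapped. Taken over all keratin TPM of a 4T1 control library, Krt18 made up 45.8% ± 0.208, Krt8 42.1% ± 0.208, Krt7 5.95% ± 0.204, Krt14 3.07% ± 0.155 and Krt19 2.63% ± 0.119 (SD, n = 3 each). The levels of Krt7 and Krt80 depend on the length used, since all annotated exons together are much longer than any 1 transcript of these genes. With the longest transcript instead, Krt7 stood at 401 and Krt80 at 19.7 TPM. Krt14 and Krt19 then overlapped, at 119 to 127 and 116 to 126 TPM, so that their order depends on the length too.

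Krt80 was the exception among the keratins in B16F10. It encodes a type II keratin found in many epithelia (ENSMUSG00000037185, mm10 chr15:101347444-101370162) and had 2165, 1946 and 2192 counts in B16F10 control and 1585, 1719 and 1694 counts in 4T1 control libraries. The raw counts did not overlap, and it made up 98.3% ± 1.09 of keratin TPM in B16F10 control against 0.309% ± 0.00516 in 4T1 control libraries (SD, n = 3 each). Scaled for depth the lines were close, with 35.8 ± 1.21 CPM in B16F10 and 31.5 ± 0.727 CPM in 4T1 (SD, n = 3 each). The log2 difference, 4T1 minus B16F10, was -0.18 (SE 0.0586, adjusted p = 0.00812), and the call was lost with DESeq2 (adjusted p = 0.0557) and without either of control replicates 1 and 2 of either line (adjusted p of 0.0532 to 0.0834). Exons of Krt80 overlap 263 bases of a gene on the other strand, Gm35853, and the sources used here do not say whether strand was used in counting.

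The second comparison asked which keratin transcripts changed with 1 µM decitabine in 4T1 cells. The stress keratin genes Krt16 and Krt17 rose from 4.23 and 1.12 TPM, far below the 6 most abundant keratin genes, to levels near those of Krt7 and Krt14, while the major simple pair fell by about the same small amount. Any count was found for 42 of the 51 genes with the drug and for 26 without it. Detection rose over all genes too, from 19481 to 19882 genes above 0 in a control library to 22770 to 23880 in a decitabine library. Decitabine replicates 2 and 3 were also deeper than any control library, so the gain in detected keratin genes is not read as a keratin result. Of 15523 tested genes 75.3% were called, 39.2% higher and 36.1% lower. Of 14 keratin genes that passed the filter on low counts 8 were higher, 3 were lower and 3 were not called, and their median log2 fold change was 0.77, also with Krt28 set at its lower bound, against 0.03 over all tested genes. Krt20, Krt28 and Krt42 passed the filter through the decitabine libraries alone and had to differ, so the count of 8 is a description. Scaling by library size only moved the median of all genes from 0.03 to -0.27 and the split of all calls from 6087 higher and 5601 lower to 4248 higher and 8242 lower. Under that scaling the 8 higher keratin genes numbered 8 as well, and Krt80 (-0.35, adjusted p = 5.95e-05) and Krt19 (-0.17, adjusted p = 0.0256) joined the 3 lower ones.

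**Figure D1:**
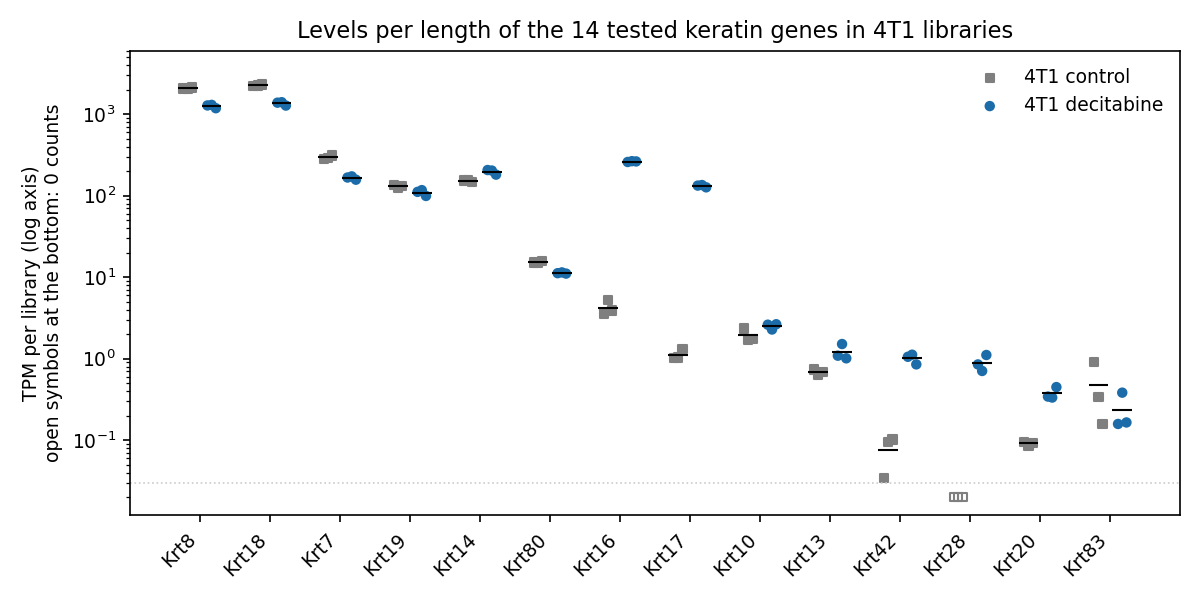
Level per length in TPM (log axis) of the 14 keratin genes tested in 4T1, 1 symbol per library, with squares for control, circles for decitabine, lines for means, and open symbols at the bottom for 0 counts. Krt16 and Krt17 move from 4.23 and 1.12 TPM to 262 and 131 TPM, close to Krt14 and Krt7. TPM carries no TMM factor, so small falls in TPM, as of Krt19 and Krt80, are not falls in the test.

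The stress keratins changed most among the well-counted genes. Krt17, a type I keratin of hair follicle layers, wounds and many carcinomas (ENSMUSG00000035557, mm10 chr11:100256217-100261029), had 26, 29 and 34 counts in control and 3437, 4565 and 5232.26 estimated counts in decitabine libraries. The groups did not overlap, and the scaled values of 0.509, 0.523 and 0.648 CPM in control and 83.1, 84.6 and 81.2 CPM with the drug were even within each group. The log2 fold change was 7.26 (SE 0.0813, adjusted p = 3.79e-13), a 153-fold rise. Krt16, a type I keratin of wounded epidermis (ENSMUSG00000053797, mm10 chr11:100246091-100248902), had 92.19, 147.31 and 102.4 estimated counts in control and 6758.62, 9041.37 and 10975.75 in decitabine libraries. The 3 drug-treated libraries again lay far above the 3 controls, at 163, 167 and 170 CPM against 1.81, 2.66 and 1.95 CPM. Its log2 fold change was 6.34 (SE 0.0961, adjusted p = 6.34e-12), an 80.7-fold rise. Across all alternatives the log2 fold change stayed between 6.04 and 6.52 for Krt16 and between 6.96 and 7.36 for Krt17. Of the 31-base words of Krt16 transcripts 51.9% occur in transcripts of other genes, 32.2% in Gm11597 and 19.7% in Krt14, so that its counts carry some uncertainty of assignment, and for Krt17 that share was 15.8%.

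The type II partners of the stress keratins were not read at comparable levels. Krt6a, the type II chain that pairs with Krt16 and Krt17 in wounded epidermis, had 0, 0 and 0 counts in 4T1 control and 2, 2 and 4.81 in decitabine libraries. It failed the filter, was at least 2.92-fold higher over the group, and was called higher when no filter was used (adjusted p = 0.0123). Krt6b, its close copy, had 1 count in the control and 1.19 in the decitabine libraries. Krt5, the type II partner of Krt14, had 0, 0 and 0 counts in control and 0, 1 and 2 with the drug. The stress class thus rose from 4.61 to 6.27 TPM in the control libraries to 390 to 400 TPM in the decitabine libraries almost wholly through its type I members. Of the words of Krt6a transcripts 62.0% are shared, 45.9% with Krt6b.

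Krt42, a type I gene that lies next to Krt17 and is known from nail (ENSMUSG00000053654), had 1, 3 and 3 counts in control and 31, 43 and 40 in decitabine libraries. The groups did not overlap and the log2 fold change was 4.01 (SE 0.377, adjusted p = 2.84e-06). Krt28, an inner root sheath keratin of the hair follicle (ENSMUSG00000055937), had 0, 0 and 0 counts in control and 23, 25 and 48 with the drug, at least 31.8-fold higher (adjusted p = 1.22e-05). Krt27, another inner root sheath keratin, had 1, 1 and 1 counts in control and 9, 10 and 9.85 with the drug, a ratio of 9.56 (95% counting interval 2.98 to 49.3), too few for the filter. Summed over its 9 genes, the inner root sheath class had 0.0385 to 0.0508 TPM in control and 1.14 to 1.41 TPM in decitabine libraries. Krt20, a simple keratin of intestine and bladder, had 3, 3 and 3 counts in control and 11, 14 and 23 with the drug, 2.40 higher on the log2 scale (SE 0.396, adjusted p = 0.000219). These genes stayed at or under 1.12 TPM, far below Krt16.

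Smaller increases were found for Krt14, Krt10 and Krt13. Krt14 had 87.0, 89.2 and 81.9 CPM in control and 146, 144 and 132 CPM in decitabine libraries. The groups did not overlap, and the log2 fold change was 0.76 (SE 0.0542, adjusted p = 3.17e-07). Of its 31-base words 17.6% occur in Krt16 as well, and the part of Krt16 reads in its count was not tested. Krt10, the type I keratin of suprabasal epidermis, had 81, 65 and 62 counts in control and 92, 105 and 149 in decitabine libraries, 0.77 higher on the log2 scale (SE 0.173, adjusted p = 0.00191). Its type II partner Krt1 had 0 counts in all 12 libraries. Krt13, a type I keratin of mucosa, had 22, 21 and 21 counts in control and 33, 60 and 49 with the drug, 1.19 higher on the log2 scale (SE 0.244, adjusted p = 0.00106), while its partner Krt4 had 0 counts in control and 1, 0 and 5 with the drug.

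The abundant simple keratins fell together. Krt8 had 1301, 1312 and 1326 CPM in 4T1 control and 1010, 1028 and 958 CPM in decitabine libraries. Krt18 had 1029, 1057 and 1062 CPM in control and 802, 813 and 758 CPM with the drug. In both genes every drug-treated library lay below every control, with log2 fold changes of -0.34 for Krt8 (SE 0.0417, adjusted p = 2.13e-05) and -0.36 for Krt18 (SE 0.0423, adjusted p = 1.77e-05). The ratio of Krt18 to Krt8 TPM within a library was 1.09 ± 0.0103 without and 1.08 ± 0.00208 with decitabine (SD, n = 3 each), with overlapping libraries. Krt7 fell from 637, 670 and 699 CPM to 475, 491 and 458 CPM, without overlap, with a log2 change of -0.44 (SE 0.0459, adjusted p = 6e-06). Krt19, also a simple keratin, read 80.6, 75.5 and 77.2 CPM in control and 83.2, 87.6 and 76.1 CPM with the drug. Its groups overlapped and it was not called (log2 fold change 0.13, SE 0.0572, adjusted p = 0.0560), although it was called higher with DESeq2 (adjusted p = 0.0372), with a filter of at least 1 CPM in 3 libraries (adjusted p = 0.00918) and without control replicate 1 or decitabine replicate 3, and lower with library size only. Krt80 read 31.04, 31.03 and 32.3 CPM in control and 28.8, 29.5 and 29.2 CPM with the drug, a log2 fold change of -0.06 (SE 0.0492) that was not called (adjusted p = 0.321) despite groups that did not overlap. Of the words of Krt8 transcripts 36.0% are shared, 32.2% with the pseudogene Krt8-ps, and for Krt18 and Krt7 the shares were 11.4% and 3.03%. Exons of Krt8 and Krt7 overlap 101 and 77 bases of genes on the other strand, Gm36026 and Gm671.

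The bases before the start sites of Krt7, Krt8 and Krt18 are shown because these 3 genes fell together in 4T1 and Krt7 is also a gene that appeared with decitabine in B16F10. They are the 250 bases before the start in RefSeq (GRCm38.p6), read 5′ to 3′ along the gene, with CpG, the target of DNA methylation, in capitals.
Krt7 (chr15:101412153-101412402, plus strand): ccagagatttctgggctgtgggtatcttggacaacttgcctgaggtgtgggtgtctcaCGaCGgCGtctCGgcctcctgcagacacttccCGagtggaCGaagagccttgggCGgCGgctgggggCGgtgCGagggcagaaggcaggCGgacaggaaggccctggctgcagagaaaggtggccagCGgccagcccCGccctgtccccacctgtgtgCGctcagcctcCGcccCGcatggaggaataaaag
Krt8 (chr15:102004343-102004592, minus strand): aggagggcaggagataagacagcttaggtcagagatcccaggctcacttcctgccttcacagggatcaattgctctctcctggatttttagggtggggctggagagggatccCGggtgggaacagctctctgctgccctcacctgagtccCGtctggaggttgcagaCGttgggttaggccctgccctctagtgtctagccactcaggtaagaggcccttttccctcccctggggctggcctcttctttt
Krt18 (chr15:102027966-102028215, plus strand): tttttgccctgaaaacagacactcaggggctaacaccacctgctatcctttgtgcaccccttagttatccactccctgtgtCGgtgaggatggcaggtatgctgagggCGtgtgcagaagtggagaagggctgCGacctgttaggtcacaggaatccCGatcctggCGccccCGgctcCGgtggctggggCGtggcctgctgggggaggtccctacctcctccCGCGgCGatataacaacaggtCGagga
Those of Krt14, Krt42 and Krt28, shown the same way, belong to genes that rose with decitabine in 4T1, with no entry for Krt16, Krt17 and Krt80. The RefSeq start used for Krt42 lies upstream of its span in the annotation GENCODE M21, chr11:100262882-100269871, so its window rests on RefSeq alone. The windows of Krt7 and Krt14 lie within their spans there, chr15:101411043-101430313 and chr11:100203162-100207548. Those of Krt8 and Krt18 reach into theirs. Bases shown before the RefSeq start thus lie within the annotated gene for these genes.
Krt14 (chr11:100206031-100206280, minus strand): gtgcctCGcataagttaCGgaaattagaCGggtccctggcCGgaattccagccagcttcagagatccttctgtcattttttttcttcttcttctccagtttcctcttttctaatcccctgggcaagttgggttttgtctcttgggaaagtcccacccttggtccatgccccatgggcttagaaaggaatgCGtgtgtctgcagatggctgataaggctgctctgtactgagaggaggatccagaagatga
Krt42 (chr11:100269952-100270201, minus strand): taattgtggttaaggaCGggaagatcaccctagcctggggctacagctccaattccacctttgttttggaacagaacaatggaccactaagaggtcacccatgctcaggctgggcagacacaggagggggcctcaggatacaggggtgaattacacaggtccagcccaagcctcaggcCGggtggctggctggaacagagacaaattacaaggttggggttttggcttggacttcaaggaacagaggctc
Krt28 (chr11:99374904-99375153, minus strand): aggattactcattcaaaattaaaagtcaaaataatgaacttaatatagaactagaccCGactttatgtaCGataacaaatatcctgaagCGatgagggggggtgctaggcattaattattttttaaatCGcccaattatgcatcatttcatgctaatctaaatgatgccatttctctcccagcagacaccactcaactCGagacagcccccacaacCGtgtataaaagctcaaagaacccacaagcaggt

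The 3 falling genes did not share a CpG content. Counted over 300 bases, 250 before and 50 after the start, Krt7 had 21 CpG, Krt18 had 17 and Krt8 had 6, while the rising genes Krt28, Krt20, Krt14, Krt10 and Krt42 had 10, 6, 5, 2 and 2 and the 2 windows of Krt13 had 5 and 2. Of the keratin genes 35 had a window in the table, 36 windows in all, with a median of 5 CpG against 7 over all 32851 windows. More than 11 CpG were found in 2 keratin windows, those of Krt7 and Krt18, and in 39.6% of all windows. The letters TATAAA, searched on both strands, were present in 52.8% of the keratin windows and 13.6% of all windows, in that of Krt28 starting 30 bases before the start site (position -30). GGGCGG was present in 5.6% and 35.7%, TGANTCA in 5.6% and 7.8%, and CCAAT in 38.9% and 37.4%. None of the 4 motifs contains another, and a match is a description of the letters only. No methylation was measured here.

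**Figure D2:**
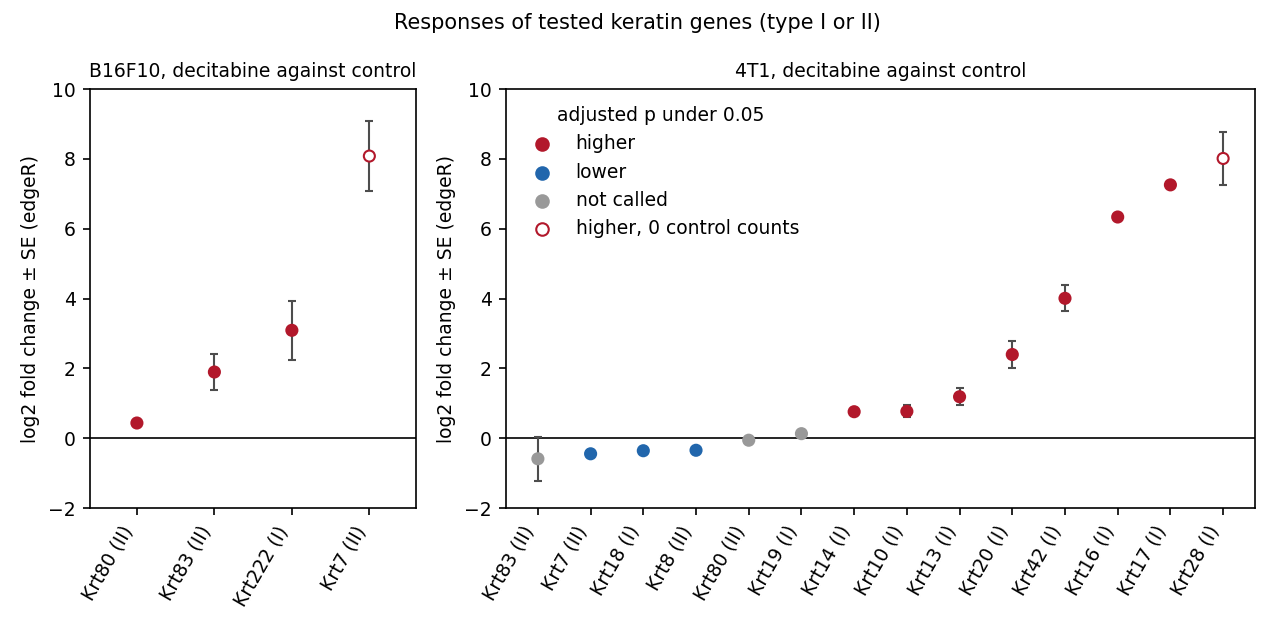
Log2 fold change with decitabine against control (edgeR, bars are ± 1 SE) of each tested keratin gene, with its type in brackets, in B16F10 on the left and 4T1 on the right. Open circles had 0 control counts, so their height depends on the fit and is no estimate of the fold. In 4T1 the genes called higher, from Krt14 at 0.76 to Krt17 at 7.26 and Krt28, are all type I, and Krt7, Krt18 and Krt8 lie just below 0.

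Calls in 4T1 were unevenly spread over the keratin types. Of 10 tested type I genes 8 were higher and 1, Krt18, was lower, and of 4 tested type II genes 0 were higher and 2 were lower. With DESeq2 and limma-voom no tested type II gene was called higher either, but with no filter 2 were, Krt6a (adjusted p = 0.0123) and the hair keratin gene Krt86, with 0, 0 and 0 counts in control and 1, 2 and 5.99 with the drug (adjusted p = 0.0130). Because 3 of the 8 passed the filter through the decitabine libraries alone, these counts are read beside the sums over the 51 members. The annotation GENCODE M21 names 3 more listed genes as keratins, which did not match by symbol and enter neither. In 4T1, 1700011A15Rik (Krt88) had 0, 1 and 2 counts in control and 5, 19 and 12 with the drug. 4732456N10Rik (Krt90) had 0, 0 and 0 against 6, 2 and 2, and 5430421N21Rik 0, 0 and 0 against 0, 1 and 0. The summed type I level was 2525, 2544 and 2596 TPM in control and 2100, 2129 and 1952 TPM in decitabine libraries. The summed type II level was 2364, 2360 and 2443 TPM in control and 1458, 1484 and 1352 TPM with the drug. Both sums were lower with decitabine, without overlap, but TPM carries no TMM factor, and the all-gene median under library size scaling lay at -0.27. The ratio of the sums within a library does not depend on that scaling. It was 1.07, 1.08 and 1.06 in control and 1.44, 1.44 and 1.44 in decitabine libraries, without overlap, and with the longest transcript as length the means were 0.990 and 1.34.

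**Figure D3:**
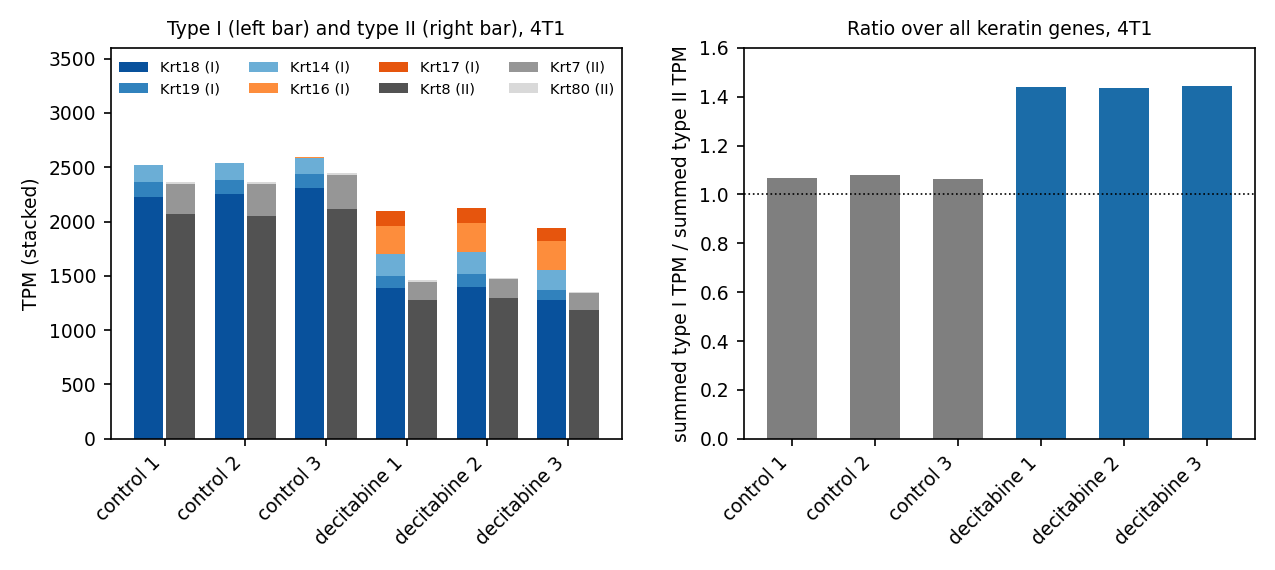
Left, stacked TPM of the main type I genes (left bar of each pair) and type II genes (right bar) in each 4T1 library. Right, summed type I over summed type II TPM across all keratin genes, with a dotted line at 1. The ratio is 1.06 to 1.08 in the 3 control and 1.44 in the 3 decitabine libraries, where Krt16 and Krt17 add to the type I bar.

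The make-up of keratin RNA in 4T1 shifted with these changes. Krt16 went from 0.0857% ± 0.0179 to 7.53% ± 0.380 of keratin TPM and Krt17 from 0.0226% ± 0.00285 to 3.77% ± 0.0546 (SD, n = 3 each). Krt14 went from 3.07% ± 0.155 to 5.63% ± 0.157, while Krt18 went from 45.8% ± 0.208 to 38.8% ± 0.152 and Krt8 from 42.1% ± 0.208 to 35.9% ± 0.0896 (SD, n = 3 each). In decitabine libraries the order per length was Krt18 at 1354 ± 68.5, Krt8 at 1254 ± 62.3, Krt16 at 262 ± 3.07, Krt14 at 197 ± 13.7, Krt7 at 165 ± 7.84, Krt17 at 131 ± 4.41 and Krt19 at 109 ± 9.06 TPM (SD, n = 3 each). The libraries of Krt18 and Krt8 overlapped, and with the longest transcript Krt7, at 235 TPM, stood above Krt16, at 216 TPM. With that length Krt17, at 104 to 111 TPM, and Krt19, at 96.4 to 113 TPM, overlapped as well. With decitabine all keratin genes together took 0.238% ± 0.0102 of a library's counts, below the 0.329% ± 0.00267 of control libraries (SD, n = 3 each). The ratio of Krt17 to Krt16 TPM was 0.285, 0.199 and 0.335 in control and 0.513, 0.510 and 0.481 in decitabine libraries, without overlap.

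Called keratin genes lay in several places along the type I cluster. Krt16, Krt17 and Krt42 follow one another on the minus strand of chromosome 11 within chr11:100246091-100269871, with Krt14 at chr11:100203162-100207548 as the nearest other called keratin gene. The next tested gene outside, Eif1, a translation initiation factor gene, rose by 0.22 on the log2 scale (SE 0.0379, adjusted p = 0.000344). Other genes around the clusters changed more. Of 20 tested genes within or up to 150000 bases outside the keratin clusters that are not keratin genes, 11 were higher and 6 were lower. Over all tested genes in 4T1 39.2% were higher and 36.1% lower. Past Eif1, P3h4 and Fkbp10, genes of collagen processing, rose by 1.35 and 5.55 (adjusted p = 8.17e-06 and 7.59e-07). Ccr7, a chemokine receptor gene before the other end of the cluster, rose by 5.62 (adjusted p = 1.94e-07), and Gm11557, inside it, by 4.99 (adjusted p = 7.63e-06). Igfbp6, a binding protein gene past Krt18 on chromosome 15, rose by 5.11 (adjusted p = 4.18e-08), and Tns4, a tensin gene beside Ccr7, fell by 1.47 (adjusted p = 9.82e-09). Fkbp10, Ccr7, Gm11557 and Igfbp6 had control means of 0.0251, 0.0249, 0.0129 and 0.0935 CPM, all below the filter level of 0.187 CPM. They passed through the decitabine libraries alone and had to differ, and the size of their rises rests on few control counts. The neighbours named here were chosen after their values were seen. Krt28, at least 31.8-fold higher, Krt10 and Krt20 lie near the other end of the cluster. Krt28 and Krt10 are neighbouring keratin genes, and the untested keratin gene Krt12 lies between Krt10 and Krt20. On chromosome 15, Krt8 (chr15:101996698-102004482, minus strand) and Krt18 (chr15:102028180-102032027, plus strand) are neighbours and fell alike.

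**Figure D4:**
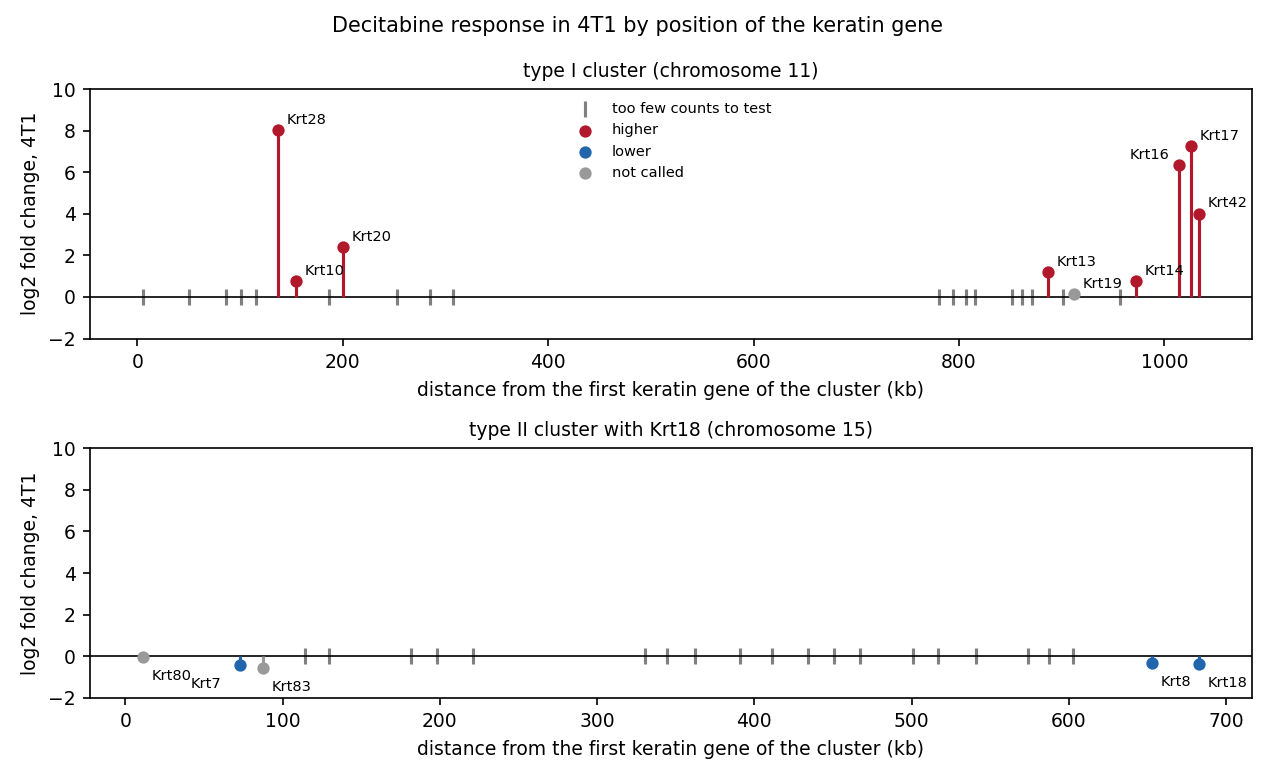
Log2 fold change with decitabine in 4T1 of each keratin gene by its distance in kb from the first keratin gene of its cluster, type I genes on chromosome 11 above and type II genes with Krt18 on chromosome 15 below. Grey ticks are genes with too few counts to test, and the value of Krt28, with 0 control counts, depends on the fit. Krt16, Krt17 and Krt42 stand together at the right end of the upper panel, at 6.34, 7.26 and 4.01.

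The third comparison asked the same of B16F10 with 0.1 µM decitabine. The number of keratin genes with any count went from 5 in control to 17 in decitabine libraries, nearly all at trace levels. Krt18, Krt6a, Krt79 and Krt82 were among them with 1 count each. Detection rose over all genes too, from 17336 to 17769 genes above 0 in a control library to 19109 to 20056 in a decitabine library, so this gain is not read as a keratin result. Of 14344 tested genes 41.2% were called, 21.4% higher and 19.8% lower. The 4 keratin genes that passed the filter, Krt80, Krt7, Krt222 and Krt83, were all higher, with a median log2 fold change of 2.49, also with Krt7 set at its lower bound, against 0.00 over all tested genes. Krt7 and Krt222 passed through the decitabine libraries alone, and Krt83, with 1 control library at the filter level, also passed because of them, so that 3 of the 4 were chosen by the group where they are high and neither the count nor the median describes the family.

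Krt80 was the only keratin gene above 1 CPM in B16F10 in either group. It had 2165, 1946 and 2192 counts in control and 2786, 2784 and 2806 counts in decitabine libraries. The groups did not overlap, and the log2 fold change was 0.44 (SE 0.0645, adjusted p = 2.34e-05), between 0.38 and 0.48 across the alternatives. Krt80 made up 91.5% ± 0.370 of keratin TPM with the drug and 98.3% ± 1.09 without (SD, n = 3 each). Krt7 had 0, 0 and 0 counts in control and 28, 42 and 30 with the drug, at least 33.8-fold higher (adjusted p = 6.99e-06). It nevertheless stood at 0.241 ± 0.0437 TPM in these libraries, against 165 ± 7.84 TPM in 4T1 with decitabine (SD, n = 3 each).

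Krt222, a type I keratin-like gene (ENSMUSG00000035849), had 0, 4 and 1 counts in B16F10 control and 11, 19 and 15 with the drug. The groups did not overlap, the log2 fold change was 3.09 (SE 0.838, adjusted p = 0.00606), and the ratio of summed counts was 9.13 (95% counting interval 3.64 to 29.5). The gene listed as Krt83 in the deposited tables (ENSMUSG00000047641), a hair shaft keratin gene that GENCODE M21 names Krt87, had 5, 16 and 8 counts in control and 30, 48 and 31 with the drug. Its groups did not overlap and the log2 fold change was 1.90 (SE 0.519, adjusted p = 0.00641), though 52.4% of its words occur in other genes. In 4T1 Krt222 had 0, 2 and 1 counts in control and 6, 5 and 7 with the drug, a ratio of 5.97 (95% counting interval 1.74 to 31.6), failed the filter and was called higher with none (adjusted p = 0.0143). Krt83 in 4T1 read 34, 14 and 6 counts in control and 6, 19 and 10.01 with the drug, overlapping and not called (adjusted p = 0.419).

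The basal keratin genes Krt5 and Krt15 had 0 counts in B16F10 control and a few with the drug, below the filter. Krt5 had 0, 0 and 0 counts in control and 21, 4 and 11 with decitabine, at least 12.2-fold higher, and Krt15, a type I keratin of basal cells and the hair bulge, had 0, 0 and 0 against 7, 1 and 12, at least 6.76-fold higher. Both were called higher when no filter was used (adjusted p = 0.000265 and 0.0137). Apart from Krt7 and Krt80, the major keratins of 4T1 stayed at or near 0 in B16F10. With decitabine Krt8 had 1, 0 and 6 counts, Krt18 had 1, 0 and 0, Krt19 had 0, 2 and 0, Krt16 had 4, 0 and 3 and Krt17 had 0, 0 and 4. Krt13 had 4, 0 and 0 and Krt14 had 0, 1 and 0, while Krt10, Krt20, Krt28 and Krt42 had 0 counts in all 6 B16F10 libraries.

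**Figure D5:**
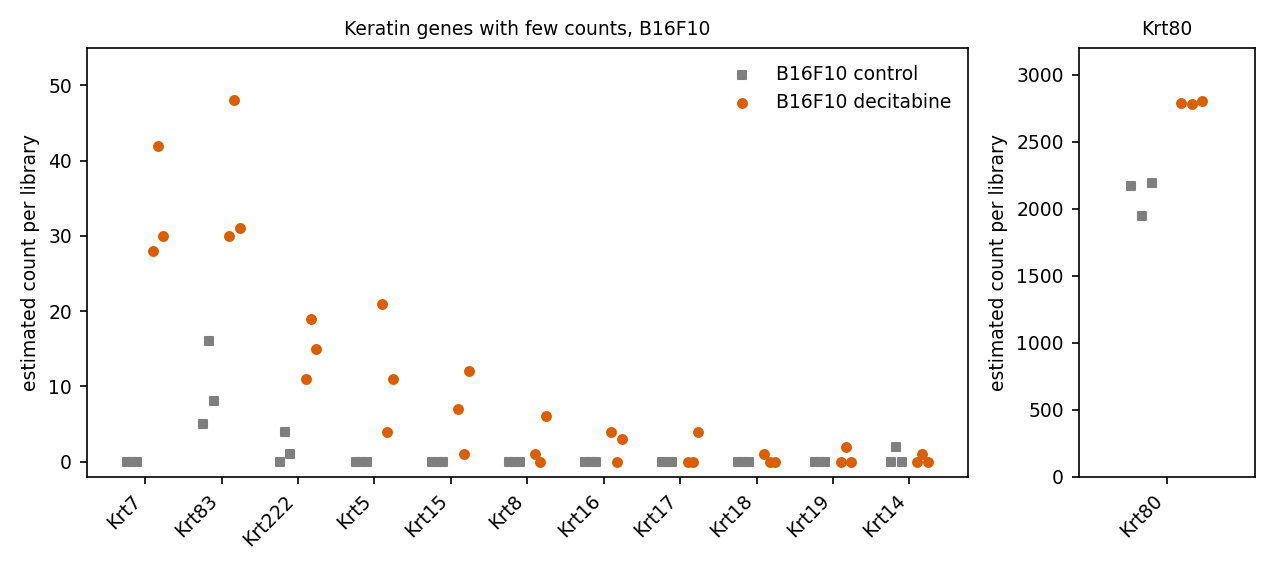
Estimated counts per B16F10 library (linear axes), squares for control and circles for decitabine, of keratin genes with few counts on the left and of Krt80 on the right. Krt7, also a major keratin of 4T1, reads 0 in the 3 control libraries and 28 to 42 with the drug. The major 4T1 keratins Krt8, Krt18 and Krt19 stay at 6 or less, and Krt80 separates at 1946 to 2192 against 2784 to 2806.

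The responses of the lines were set against each other in one fit of all 12 libraries, where dose and line cannot be told apart. Of 17127 genes 49.8% were called different in response, 20.9% higher and 28.9% lower in 4T1. Of 15 tested keratin genes 4 were lower and 0 higher, and 0 were higher at an unadjusted p under 0.05. The count of 0 says little: Krt10, Krt20, Krt28 and Krt42 had 0 counts in all 6 B16F10 libraries, so that edgeR could not call them higher whatever they did in 4T1, and the other keratin genes except Krt80, Krt83, Krt222 and Krt14 had 0 counts in B16F10 control. For Krt80 the response in 4T1 minus that in B16F10 was -0.54 (SE 0.0828, adjusted p = 2.99e-05), from 1193 to 2806 counts in a library, the only one of the 4 that was counted well in every group. For Krt7 it was -8.50 (adjusted p = 6.65e-10), a fitted value whose size depends on the 0 counts of B16F10 control. For Krt83 it was -2.54 (SE 0.839, adjusted p = 0.0179, or 0.112 without 4T1 control replicate 1 and 0.0505 without 4T1 decitabine replicate 3). For Krt8 it was -4.64 (adjusted p = 0.0321), which rests on 7 counts in B16F10 decitabine libraries and was lost with limma-voom (adjusted p = 0.0533), with no filter (0.0649) and without any 1 library other than B16F10 decitabine replicate 1 or 2 (0.0539 to 0.227). The stress keratin genes Krt16 and Krt17, at 0 counts in B16F10 control and 7 and 4 counts with the drug, were not called by edgeR (adjusted p = 0.822 and 0.914). DESeq2 called the response of Krt17 and Krt28 higher in 4T1, and limma-voom those of Krt16, Krt17, Krt20, Krt28 and Krt42. Side by side, Krt16 had 26775.74 counts over the 3 decitabine libraries in 4T1 and 7 in B16F10, a ratio of 4165 (95% counting interval 2020 to 10400).

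Genes that anchor keratin filaments moved in different directions in 4T1. Counts of called genes in this and the next paragraphs are to be read beside the 39.2% higher and 36.1% lower of all tested genes in 4T1 and the 21.4% and 19.8% in B16F10. In desmosomes, the cell junctions that hold keratin filaments, 8 of 10 tested genes were higher (80%) and 1 was lower (10%) of 16 listed, with a median of 0.35. Dsg3, a desmosomal cadherin of stratified epithelia, read 0.0979, 0.325 and 0.229 CPM in control and 3.43, 4.205 and 3.29 CPM with the drug (log2 fold change 4.09, adjusted p = 1.82e-07). Dsg3, 1 of the 10 tested, lay below the filter level in at least 1 control library and passed because of the decitabine libraries. Jup, which encodes plakoglobin, rose from 107, 106 and 107 to 155, 148 and 132 CPM (0.49, adjusted p = 1.68e-05). Pkp4, a plakophilin-like gene, fell from 125, 123 and 127 to 70.3, 67.5 and 74.5 CPM (-0.77, adjusted p = 6.21e-08). Hemidesmosome genes and keratin linkers, which tie filaments to the basement membrane and to other structures, were listed with the keratinocyte-associated genes Krtcap2 and Krtcap3. Of these 13 genes, 2 were higher (15.4%) and 10 were lower (76.9%), with a median of -0.28. Ppl, the periplakin gene, fell from 47.7, 41.6 and 41.2 to 22.7, 23.6 and 22.1 CPM (-0.88, adjusted p = 7.11e-07), and Krtcap3, a keratinocyte-associated gene, from 18.3, 17.5 and 16.5 to 7.66, 8.65 and 8.69 CPM (-1.01, adjusted p = 5.57e-07). The rising members were Col17a1, a hemidesmosomal collagen gene (0.92, adjusted p = 0.00176), and Krtcap2 (0.44, adjusted p = 5.25e-05), which despite its name encodes a subunit of the oligosaccharyltransferase.

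The cornified envelope, the protein shell of dead surface keratinocytes, had 6 of 6 tested genes higher of 20 listed, of which 4, Ivl, Flg2, Sprr1a and Tgm1, lay below the filter level in at least 1 control library and passed because of the decitabine libraries. Sprr1a, an envelope precursor gene, read 0.0588, 0.0361 and 0.0191 CPM in control and 3.58, 3.07 and 3.58 CPM with the drug (6.46, adjusted p = 6.72e-09), and Tchh, the trichohyalin gene of the inner root sheath, 1.63, 1.39 and 1.58 against 13.3, 13.7 and 10.9 CPM (3.09, adjusted p = 4.66e-09). Of 19 epithelial transcription factor genes 11 were higher (57.9%) and 3 were lower (15.8%), with a median of 0.93, and 3 of the 19 lay below the filter level in control. Klf4, a factor of epidermal differentiation, rose from 9.97, 10.3 and 9.99 to 31.6, 30.4 and 27.4 CPM (1.61, adjusted p = 8.66e-09), and Ovol1 from 4.13, 3.56 and 3.89 to 16.005, 17.4 and 14.7 CPM (2.11, adjusted p = 1.06e-08). Gata3, a luminal mammary factor, fell from 86.6, 89.7 and 95.1 to 45.3, 41.3 and 39.7 CPM (-1.05, adjusted p = 5.01e-08), and Esrp1, an epithelial splicing factor, fell too (-0.70, adjusted p = 8.66e-07). Of 14 epithelial surface markers 6 were higher (42.9%) and 4 were lower (28.6%), shares near those of all genes, among them Crb3 (1.64) and Cldn4 (0.78) rising and Prss8 (-0.91) and Cldn3 (-0.33) falling.

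Among other intermediate filament genes in 4T1, 7 of 11 were higher and 4 were lower, and 2 of the 7, Prph and Nefm, lay below the filter level in control. Their summed level nevertheless went from 2715 to 2845 TPM in control to 1064 to 1221 TPM with the drug, mostly through Vim. Vim, which encodes vimentin, the filament of mesenchymal cells, fell from 2763, 2665 and 2658 to 1032, 1043 and 900 CPM (log2 fold change -1.39, SE 0.0605, adjusted p = 9.36e-09), a larger fall than those of Krt8 and Krt18. Lmnb1, a nuclear lamin gene, fell (-0.81, adjusted p = 3.05e-08), and the neuronal filament genes Nefh and Prph rose from at most 0.353 CPM (3.47 and 3.60, adjusted p = 3.08e-08 and 7.77e-07). In B16F10, 4 of 10 were higher and 2 were lower. Des, the muscle filament gene desmin, rose from 15.9, 18.7 and 17.0 to 36.2, 41.8 and 41.2 CPM (1.22, adjusted p = 3.52e-10) and Nes, the nestin gene, rose too (0.48, adjusted p = 7.84e-06), while Lmnb1 (-0.47) and Lmnb2 (-0.36) fell.

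In B16F10 some epithelial genes appeared at low level beside Krt7. Grhl2, an epithelial transcription factor gene, read 0.100, 0.169 and 0.173 CPM in control and 2.01, 2.52 and 2.46 CPM with the drug (3.97, adjusted p = 2.2e-08), one of 2 factors higher and 1 lower of 9 tested. The other rising factor was Grhl3, and Tfap2a, which is also a melanocyte factor, fell (-0.47, adjusted p = 5.42e-06). The 22.2% of tested factors that were higher lay near the 21.4% of all tested genes. Jup read 0.117, 0.245 and 0.110 CPM in control and 1.85, 1.94 and 1.93 CPM with the drug (3.61, adjusted p = 2.96e-07), and Pkp3, a plakophilin gene, rose from 0, 0.0753 and 0 to 1.13, 0.702 and 0.900 CPM (5.19, adjusted p = 1.86e-05). Of 5 tested desmosome genes 4 were higher and Pkp4 was lower (-0.24), but Jup, Pkp3 and Perp passed the filter through the decitabine libraries, as did Grhl2, Grhl3 and Spint1. Among hemidesmosome genes and linkers, listed with Krtcap2 and Krtcap3, 4 of 10 were higher and 1, Krtcap2, was lower. Plec, the plectin gene, rose by 0.47 and Itgb4, an integrin gene, by 0.88. Spint1 was the 1 surface marker of 3 called, higher at 0.257 to 0.490 CPM, and Cdsn the 1 envelope gene tested, higher at 2.35 to 3.32 CPM. The other 2 surface markers tested, Cdh1 (-0.55, adjusted p = 0.126) and Epcam (0.33, adjusted p = 0.225), were not called.

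Markers of other cell types moved with the drug beside these groups. Many of the tested ones lay below the filter level in at least 1 control library and passed because of the decitabine libraries. Their direction was thus largely set by the filter. In 4T1 these were 5 of the 9 myoepithelial, 3 of the 5 keratinocyte and 2 of the 5 fibroblast genes. They were also 2 of the 4 blood and immune, 3 of the 6 endothelial and 2 of the 3 melanocyte genes there. In B16F10 these were 3 of the 6 luminal and 3 of the 5 myoepithelial genes. Among the latter, Oxtr was not high with the drug (log2 fold change -0.59, adjusted p = 0.495, not called), so its direction was not set this way. Of the fibroblast genes in B16F10 it was 1 of the 6, Col3a1, and of the endothelial genes 1 of the 2, Mmrn2. In 4T1, 8 of 9 myoepithelial and basal mammary markers were higher, among them Krt14 and Krt17 and the receptor gene Egfr (1.51), while 1 of 7 luminal markers was higher, Foxa1, and 4 were lower, among them Krt8, Krt18, Gata3 and Esr1. Of 5 tested keratinocyte and hair follicle markers 5 were higher, Krt10 among them, with a summed level of 2.95 to 3.69 TPM in control and 19.2 to 20.9 TPM with the drug. Fibroblast markers had 4 of 5 tested higher (11.7 to 12.3 against 18.3 to 19.9 TPM summed over 10 genes), blood and immune markers 4 of 4 (6.55 to 8.29 against 22.3 to 24.9 TPM), endothelial markers 4 of 6 (52.5 to 56.6 against 43.7 to 57.0 TPM) and melanocyte markers 3 of 3 (3.10 to 3.58 against 3.71 to 4.47 TPM). Of the 10 genes in each of these lists, 0 counts in 4T1 were found for 4 blood and immune genes in control and 3 with the drug, for 2 and 0 fibroblast, 1 and 0 endothelial and 6 and 2 melanocyte genes. In 4T1 with decitabine the T cell gene Cd3e stood at 0.0625, the myeloid gene Lyz2 at 0.0279, the fibroblast gene Col3a1 at 0.00617 and the melanocyte gene Tyrp1 at 0 CPM. Ptprc, a gene of all white blood cells, read 0.0588, 0.0722 and 0.114 CPM in control and 0.822, 1.48 and 1.33 CPM with the drug. Csf1r, Cdh5 and Col1a1, markers of macrophages, endothelium and fibroblasts, stood at 12.5 to 13.8, 7.86 to 8.95 and 9.13 to 11.1 CPM with the drug. None of them lay below the filter level in a 4T1 control library. In B16F10 the summed level was 16.5 to 19.0 TPM in control and 20.6 to 25.6 TPM with the drug for fibroblast markers (4 of 6 tested higher), 230 to 249 and 336 to 411 TPM for blood and immune markers (1 of 3 higher, Cd68), and 115 to 126 and 161 to 184 TPM for endothelial markers (2 of 2 higher). Luminal markers had 3 of 6 higher there, among them the milk protein gene Csn3 (6.41) and Pgr (5.12), myoepithelial markers 3 of 5, Acta2 (4.87) and Mylk (1.24) among them, and melanocyte markers 3 of 10 higher, 4 lower. The part of other cells in the keratin changes was not tested.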

How the data were processed

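RNA of 12 libraries was measured, 3 in each of 4 groups. The values deposited by the authors are estimated counts per gene, not normalized, and RSEM, edgeR and the build mm10 are named for them per the submitters' processing notes, with no versions. Per the labels' protocols the library kit marks molecules with indices, but the sources used here do not say whether counting used these, and the extraction text names a DNA kit. Of the entries above 0, 24.7% to 30.2% per library were not whole, and counts were rounded for the tests. Libraries held 48197936 to 76042600 counts, and intervals and floors (3 counts, 95% exact) cover counting error only.

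Genes were filtered with filterByExpr, scaled with TMM and tested with edgeR 4.0.16 (quasi-likelihood, robust; R 4.3.3) within each line, and in 1 fit of all libraries for the lines and the difference in response, with Benjamini-Hochberg adjustment over all tested genes and a threshold of 0.05. Alternatives were DESeq2 1.42.0, limma-voom (limma 3.58.1), library size scaling, no filter, at least 1 CPM in 3 libraries, a replicate block, 1 fit of all 12 libraries and leaving out each library. The fits were tested on simulated data. TPM used exon lengths of GENCODE M21 (mm10), matched for 46005 identifiers, and shared words of 31 bases were counted over its transcripts on either strand. Start site windows came from RefSeq (GRCm38.p6). Figures were drawn with matplotlib 3.10.9.

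The members and lists were chosen with earlier results of these data known. A keratin gene was described in every sample if called in any comparison or at a mean of 1 CPM in a group, and from each companion list the 2 rising and 2 falling called genes of smallest adjusted p were eligible, besides Dnmt1 and defining line markers. Others named (genes flanking the clusters, Krt86, Krt5, Krt15, Krt1, Krt4, Krt6a, Krt6b, Krt27, Ptprc, marker genes near 0) were chosen after their values were seen.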

Additional observations from a re-analysis of the deposited data

Results flagged for a closer look

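For 4 keratin genes the tested difference between the decitabine responses of the lines passed the threshold, each response taken as decitabine minus control and the difference as 4T1 minus B16F10 on the log2 scale. The difference was -8.504 for Krt7, which fell in 4T1 and went from 0 counts to 28, 42 and 30 in B16F10, so that its size depends on the fit. For Krt80 it was -0.539, with a rise in B16F10 and no call in 4T1. For Krt83 it was -2.537, from at most 48 counts in a library. For Krt8 it was -4.64, from 7 counts over the 3 B16F10 decitabine libraries. Dose differs with line, and the 2 cannot be told apart.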

How the results depend on the processing

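The count of keratin genes called higher in B16F10 was 1 instead of 4 with a filter of at least 1 CPM in 3 libraries, which leaves Krt80 as the only keratin gene tested. With no filter the 4T1 count higher was 13 and with the stricter filter 5 instead of 8, since more and fewer genes were tested. The count lower in 4T1 was 5 instead of 3 with library size only. Krt19 went there from 0.13 to -0.17 and Krt80 from -0.06 to -0.35, while the median of all tested genes went from 0.03 to -0.27. The cause was not tested. For the difference between lines, 2 keratin genes were higher with DESeq2 and 5 with limma-voom instead of 0, and 2 to 4 were lower when 1 library was left out, with 2 when 4T1 control replicate 1 or 4T1 decitabine replicate 3 was left out; the cause was not tested. Between untreated lines the 1 lower gene, Krt80, was lost with DESeq2 (0 lower), and 0 to 1 were lower when 1 library was left out. With 1 library left out, 4 to 5 keratin genes were higher in B16F10, and in 4T1 8 to 9 were higher and 3 lower. With library size only the difference split into 2475 higher and 6908 lower genes instead of 3577 and 4949. Lengths of the longest transcript moved levels and sums but not the direction of the type I to type II ratio with the drug.

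Replicate numbers did not pair the samples: the correlation of deviations between same-numbered libraries was -0.168, -0.138 and -0.0426 in B16F10 and -0.0768, 0.0573 and -0.0469 in 4T1. With a replicate block 5906 genes were higher and 5401 lower in 4T1, 2947 and 2781 in B16F10, and no keratin call changed. Below about 10 counts a library, as for Krt6a, Krt5 or Krt27, depth limits what can be said.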
